A study of Mus musculus with 15 samples.

Results

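The cytosolic ribosomal protein genes encode the proteins of the 40S and 60S subunits of the ribosome outside mitochondria. They were chosen by symbol, as names starting Rpl or Rps followed by a number, together with Rpsa, Rplp0, Rplp1, Rplp2 and Fau, and without kinases and pseudogenes. Probe sets that name exactly 1 gene gave 50 of them among 18193 genes, 24 of the small and 26 of the large subunit, and the brightest of a gene's probe sets stood for it. A further 28 ribosomal protein symbols, Rpl3, Rpl5, Rplp1 and Rps12 among them, appear on this array only in probe sets that name several genes and were not analysed here. Of the 50, 46 passed the filter on dim genes, which asked that a signal exceed the median of its array on 3 or more of 15 arrays. Rpl39l, Rpl3l, Rps16 and Rps4l were too dim.

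The samples were spheres of primary mammary tumour cells from FVB/N mice with the MMTV-PyMT transgene, in which a mammary tumour virus promoter drives the polyoma middle T oncogene in mammary epithelium. The spheres grew for 10 days in suspension in a serum-free medium with growth factors, and then received an inhibitor or vehicle for 2 days. The groups were DAPT, which blocks γ-secretase and so Notch, U0126, an inhibitor of MEK1, TAE226, which inhibits focal adhesion kinase, PP2, which inhibits Src family kinases, and vehicle. Each group had 3 samples and each sample 1 Affymetrix Mouse430_2 array, and no group lacked the transgene. The labels call the samples biological replicates but do not tie them to separate mice or cultures, so each p-value speaks for the spread among these samples only. Inhibitor doses were not given.

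A ribosome holds 1 copy of nearly every ribosomal protein, so growing cells make the proteins in matched amounts, and their mRNAs are among the most abundant in most cells. Most of these mRNAs begin with a run of C and U called the 5′ terminal oligopyrimidine (TOP) motif, through which mTORC1 and the RNA-binding protein LARP1 control how strongly they are translated. Proteins that are not built into subunits can act elsewhere, the best known case being RPL5 and RPL11, which with 5S rRNA bind MDM2 and so raise p53. The arrays measured mRNA, not translation or ribosomes.

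The stretch around the transcription start is shown for the 6 genes whose changes stand out below, because the TOP motif lies there. Each line gives 60 bases, 35 before the start and 25 from it, 5′ to 3′ on the gene's strand, from RefSeq on GRCm38.p6. Capitals mark the longest run of C and T between 20 bases before and 25 bases after the start.
Rps6: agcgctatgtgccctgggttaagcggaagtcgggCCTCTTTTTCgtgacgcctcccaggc
Rpl14: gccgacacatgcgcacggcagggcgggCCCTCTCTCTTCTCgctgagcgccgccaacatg
Rpl22l1: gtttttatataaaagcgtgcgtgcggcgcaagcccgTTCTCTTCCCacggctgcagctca
Rpsa: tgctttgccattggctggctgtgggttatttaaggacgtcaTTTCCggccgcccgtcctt
Rps25: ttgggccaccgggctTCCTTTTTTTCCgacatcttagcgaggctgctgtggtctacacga
Rpl12: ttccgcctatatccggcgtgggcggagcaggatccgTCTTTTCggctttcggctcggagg
The windows lie at chr4:86857343-86857402 (minus strand) for Rps6, chr9:120571482-120571541 for Rpl14, chr3:28805473-28805532 for Rpl22l1, chr9:120127731-120127790 for Rpsa, chr9:44407679-44407738 for Rps25 and chr2:32961677-32961736 for Rpl12, all 5 on the plus strand. Each window spans the annotated start and the first bases of the 5′ UTR. The capital run is 14 bases in Rpl14, 12 in Rps25, 10 in Rps6 and Rpl22l1, 7 in Rpl12 and 5 in Rpsa. It begins 20 bases before the annotated start in Rps25, where it also ends before the start. It begins 8 bases before the start in Rpl14 and 1 before in Rps6. The first base of the run is base 2 from the start in Rpl22l1 and Rpl12 and base 7 in Rpsa. Whether any of these runs serves as a TOP motif was not tested.

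RefSeq starts were at hand for 41 of the 46 genes tested. A run of 6 or more pyrimidines between 20 bases before and 40 bases after the start was present in 32 of these 41 (78.0%), against 44.5% of the 9307 genes tested that had a start. The letters CCGGAAG, the core that ETS factors bind, were found on either strand in the 300 bases around the start in 48.8% of the ribosomal protein genes, against 19.0% of all. GGGCGG, the GC box, was found in 58.5% against 66.1%, and AAGATGG in 17.1% against 7.42%. A match is a description of letters and not a binding site. Calls against vehicle, described below, were as follows with and without the run. Under DAPT 19 of 32 genes with the run and 6 of 9 without it were called lower, against 17.5% of all genes tested. The median log2 fold changes under DAPT were -0.24 in both sets. Under PP2 the counts were 12 of 32 and 2 of 9, against 26.9% of all genes. They were 6 of 32 and 1 of 9 under TAE226, against 15.9%, and 1 of 32 and 1 of 9 under U0126, against 21.3%. Whether the run bears on the calls was not tested.

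These genes lie at the top of the array's range, which bears on every value below. The deposited values are MAS5 signals, which put the trimmed mean of each array at 500 after leaving out the top and bottom 2% of probe sets. On every array 37 of the 46 genes lay in the top 2%, and so outside the part that set the scale. The other 9 were Rpl12, Rpl14, Rpl27a, Rpl37, Rpl39, Rpl7l1, Rps25, Rps27 and Rps6. The median log2 distance from the 37 to the brightest probe set of the array was 0.48 ± 0.05 under DAPT, 0.45 ± 0.05 under U0126, 0.59 ± 0.02 under TAE226, 0.67 ± 0.03 under PP2 and 0.46 ± 0.06 in vehicle (SD, n = 3 each). Whether the signal flattens near this limit was not tested. Of 8 luminal epithelial markers, 7 or 8 exceeded the array median throughout each group, and of 6 basal markers 4 or 5. No fibroblast, endothelial or adipocyte marker did so, and of 7 leukocyte markers at most 1. The summed signal of the basal markers moved with the group, at 18946 to 19537 under DAPT, 16980 to 20078 under U0126, 13584 to 14732 under TAE226, 11730 to 12871 under PP2 and 14232 to 15236 in vehicle, though under U0126 and TAE226 2 of these genes were called higher and 2 lower. The luminal sum was 60092 to 62453 under DAPT, 62891 to 70461 under U0126, 64930 to 72667 under TAE226, 70829 to 73259 under PP2 and 65937 to 68439 in vehicle. The part of either sum in the results below was not tested. In such bulk samples fewer cells of a type and less RNA per cell cannot be told apart.

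On the deposited values, more than the background share of ribosomal protein genes was called lower under DAPT. The share was near the background under PP2 and TAE226 and below it under U0126. All log2 fold changes are inhibitor over vehicle, from 1 limma fit to all genes, and a gene is called when its adjusted p is below 0.05. Under DAPT 25 of 46 were called lower (54.3%), against a background of 17.5% of all genes tested. Under PP2 15 were called lower (32.6%), against 26.9%. Under TAE226 7 were called lower (15.2%), against 15.9%, and under U0126 2 (4.35%), against 21.3%. These 4 comparisons share the vehicle arrays. No gene was called higher in any of them by limma, against 16.8%, 25.9%, 15% and 19.4% of all genes under DAPT, PP2, TAE226 and U0126. At an unadjusted p under 0.05 1 gene was higher under PP2 and 1 under TAE226, and none under DAPT or U0126. Limma's F-test over the 5 groups called 30 of 46, against 72.9% of all genes. No fitted change reached 2-fold.

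**Figure D1:**
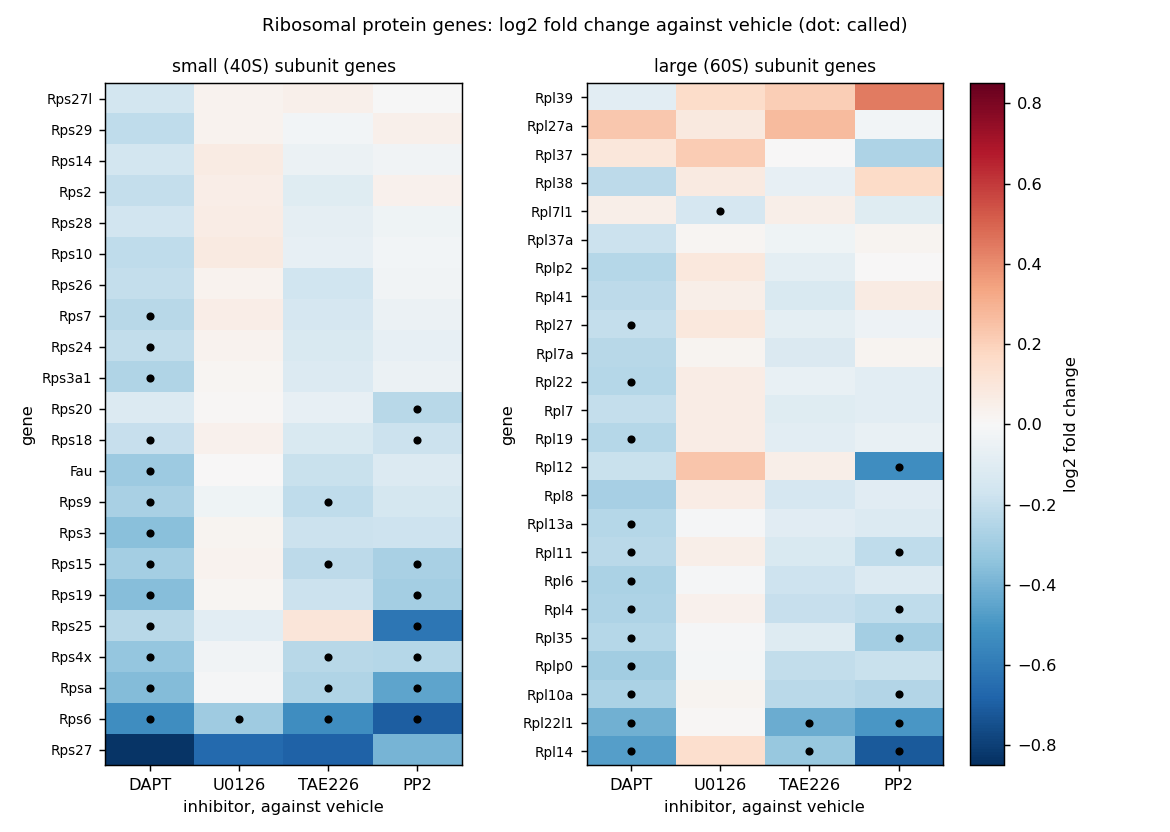
Log2 fold change (colour) of the 46 genes tested (rows, split by subunit) for each inhibitor against vehicle (columns); a dot marks an adjusted p below 0.05. The DAPT column holds 25 dots and is blue for 43 genes, the U0126 column holds 2 dots, TAE226 7 and PP2 15; Rps6 is marked in all 4.

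Under DAPT the fall was shallow and broad. The median log2 fold change was -0.24, against 0.02 over all genes tested, and 43 of 46 genes lay below 0. The 3 DAPT arrays lay below the 3 vehicle arrays without overlap for 34 genes, against 23.2% of all genes in that direction. Both subunits took part: 13 of 22 small and 12 of 24 large subunit genes were called, with medians of -0.23 and -0.24. Among genes called, the 5 largest falls were those of Rps6 (-0.53), Rpl14 (-0.47), Rpl22l1 (-0.41), Rpsa (-0.37) and Rps19 (-0.36). The only positive values were those of Rpl27a (0.23), Rpl37 (0.09) and Rpl7l1 (0.05), none of them called. The count rested in part on single arrays, as 15 genes were called lower without DAPT replicate 3 or without vehicle replicate 3.

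Under PP2 a few genes fell by more than the family as a whole. The median was -0.11, against 0.02 over all genes, 8 small and 7 large subunit genes were called lower, and 20 genes had arrays without overlap, against 29.3% of all genes. Among genes called, the 5 largest falls were those of Rpl14 (-0.71), Rps6 (-0.70), Rps25 (-0.62), Rpl12 (-0.53) and Rpl22l1 (-0.49). The next was Rpsa (-0.45), and the other 9 lay between -0.29 and -0.18. Rpl14, Rps6, Rps25 and Rpl12 rest on dimmer probe sets outside the top 2%, at mean log2 signals of 9.61, 11.31, 10.05 and 9.57. Rpl22l1 and Rpsa stood at 13.54 and 14.29. Whether brightness bears on the size of these falls, here or under the other inhibitors, was not tested. At the other end Rpl39 stood at 0.44 (SE 0.18, limma adjusted p = 0.0539). PP2 arrays also had the highest ratio of 3′ to 5′ actin signal, a sign of shorter RNA or cDNA, at 1.54 to 1.61 against 1.39 to 1.49 in vehicle. Their 18S rRNA 3′ signal was 4715 to 6312, against 10039 to 10164 in vehicle. The 18S 3′ signal lay below vehicle under the other inhibitors too, at 6007 to 8063 under DAPT, 9008 to 9903 under U0126 and 6943 to 8235 under TAE226. The other 18S probe sets did not all follow. The 5′ signal under U0126 was 16243 to 17869, against 15176 to 16322 in vehicle. The middle signal under PP2 was 8453 to 10267 and overlapped with vehicle, at 9756 to 10430. The part of the actin ratio or the 18S signal in these changes was not tested.

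Under TAE226 a few genes fell. The median was -0.12, against 0.02 over all genes, 5 small and 2 large subunit genes were called lower, and 13 genes had arrays without overlap, against 21.6% of all genes. The largest falls among genes called were those of Rps6 (-0.53), Rpl22l1 (-0.42), Rpl14 (-0.32), Rpsa (-0.26) and Rps4x (-0.24), followed by Rps15 and Rps9 (both -0.22). The count was 4 without TAE226 replicate 1, vehicle replicate 1 or vehicle replicate 3.

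Under U0126 the family as a whole lay near the vehicle level. The median was 0.03, against 0.00 over all genes, and 35 of 46 genes lay above 0. The 2 genes called lower were Rps6 (-0.30) and the paralog Rpl7l1 (-0.14). For these 2 alone the arrays did not overlap with vehicle, against 24.9% of all genes in that direction.

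DAPT and U0126 were also set against each other, a comparison added after the values were seen that uses no vehicle array. U0126 over DAPT gave 37 of 46 genes called higher, against 21.6% of all genes, and 1 called lower, Rpl7l1 (-0.19), against 23.1%. The median was 0.27, against -0.01 over all genes. The largest differences were those of Rpl14 (0.61), Rpl12 (0.43), Rpl22l1 (0.42) and Rps19 (0.38). For 37 genes every U0126 array lay above every DAPT array, against 26.1% of all genes. The count called higher depended on the scaling, at 24 with cyclic loess and 8 with quantile normalisation. It was 9 when arrays were aligned on other bright genes, those at least as bright as the dimmest of the 37. It was 1 when they were aligned on the poly-A controls, transcripts added during sample preparation. Of all genes 23.1% were called higher with cyclic loess and 21.8% with quantile normalisation. The quantile count thus did not exceed the background. Quantile normalisation gives every array the same distribution, so it can remove a shift shared by many of the brightest genes. The counts on the other bright genes and on the poly-A controls were not set against such a share. On the deposited values the count was 23 without DAPT replicate 3 or without U0126 replicate 2.

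Rps6 encodes the small subunit protein that S6 kinases phosphorylate downstream of mTORC1 and ERK. Its signal was 2425, 2299 and 2315 under DAPT, 2820, 2733 and 2693 under U0126, 2333, 2287 and 2419 under TAE226, 2067, 2058 and 2134 under PP2, and 3526, 3261 and 3367 in vehicle. Every array of every inhibitor lay below every vehicle array, PP2 was the lowest group and U0126 the nearest to vehicle. Against vehicle the limma log2 fold changes were -0.53 (SE 0.05, adjusted p = 2.66e-07) under DAPT, -0.30 (SE 0.05, adjusted p = 9.32e-05) under U0126, -0.53 (SE 0.05, adjusted p = 4.18e-07) under TAE226 and -0.70 (SE 0.05, adjusted p = 3.25e-09) under PP2. In fold terms it was 1.44-fold lower under DAPT and 1.62-fold lower under PP2. Between inhibitors, PP2 differed from TAE226 by -0.17 (adjusted p = 0.00873) and TAE226 from U0126 by -0.23 (adjusted p = 0.00133), while TAE226 differed from DAPT by 0.00 (adjusted p = 0.999).
A second Rps6 probe set, dim and above the array median on 10 of 15 arrays, went the other way, with log2 fold changes of 0.40 under DAPT, 0.61 under U0126, 0.36 under TAE226 and 0.59 under PP2. Averaging both probe sets ended the call in all 4 comparisons, at -0.06, 0.16, -0.08 and -0.05 in the order just given.

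Rpl14, a large subunit protein of eukaryotes and archaea, stood next to Rps6 in size of change. Its signal was 751, 621 and 684 under DAPT, 1167, 935 and 1048 under U0126, 842, 734 and 700.2 under TAE226, 575, 585 and 573 under PP2, and 964, 964 and 914 in vehicle. The PP2 arrays lay close together and below all others, while U0126 overlapped with vehicle. Limma gave -0.71 (SE 0.09, adjusted p = 4.65e-06) under PP2, -0.47 (adjusted p = 0.00066) under DAPT, -0.32 (adjusted p = 0.0112) under TAE226 and 0.14 (adjusted p = 0.224) under U0126. PP2 differed from TAE226 by -0.39 (adjusted p = 0.00206). The TAE226 call was lost without TAE226 replicate 3 (adjusted p = 0.0594).

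Rpsa encodes a small subunit protein that has also been described at the cell surface as a laminin receptor. Its signal was 18754, 18557 and 16891 under DAPT, 23263, 25153 and 21216 under U0126, 17438, 20180 and 20922 under TAE226, 16406, 17496 and 17314 under PP2, and 24004, 21857 and 24033 in vehicle. DAPT, TAE226 and PP2 arrays all lay below vehicle, and U0126 arrays straddled it. Limma gave -0.45 (SE 0.08, adjusted p = 0.000103) under PP2, -0.37 (adjusted p = 0.00127) under DAPT, -0.26 (adjusted p = 0.0156) under TAE226 and -0.01 (adjusted p = 0.955) under U0126. Without TAE226 replicate 1, the lowest of its group, the TAE226 value was -0.18 (adjusted p = 0.076), and its call was also lost without vehicle replicate 1 or 3. With the mean of all Rpsa probe sets the limma values were -0.51 (adjusted p = 0.373) under DAPT and -0.36 (adjusted p = 0.537) under TAE226. Neither was called. The other Rpsa probe set in that mean was dim, at a mean log2 signal of 4.39 and above the array median on 0 arrays.

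Rps25 and Rpl12 were called lower under PP2 than under each other inhibitor, while TAE226 and U0126 did not differ past the threshold in either gene. Rps25, a small subunit protein that some viral internal ribosome entry sites need, had signals of 999, 1009 and 1038 under DAPT, 1194, 1096 and 1086 under U0126, 1197, 1395 and 1264 under TAE226, 717, 854 and 770.4 under PP2, and 1141, 1194 and 1249 in vehicle. PP2 arrays were the lowest of all, and TAE226 arrays ran from within the vehicle range to above it. The change was -0.62 (SE 0.07, adjusted p = 2.6e-06) under PP2 and 0.10 (adjusted p = 0.316) under TAE226, and the direct difference of PP2 from TAE226 was -0.72 (SE 0.07, adjusted p = 6.39e-07). Under DAPT it was -0.23 (adjusted p = 0.0216), a call lost without DAPT replicate 1 or 2 or vehicle replicate 2 or 3.
Rpl12, which sits at the base of the stalk of the large subunit, had signals of 635, 750.3 and 742 under DAPT, 826, 1150 and 902 under U0126, 839, 768 and 904 under TAE226, 618, 539 and 524 under PP2, and 799, 903 and 729 in vehicle. Again the PP2 arrays were the lowest. The change was -0.53 (SE 0.12, adjusted p = 0.00114) under PP2, 0.05 (adjusted p = 0.788) under TAE226 and 0.23 (adjusted p = 0.124) under U0126, and PP2 differed from TAE226 by -0.58 (adjusted p = 0.000715).

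Several members are known for roles outside the ribosome, for its stalk or for disease. Rpl11, the partner of RPL5 in binding MDM2, had signals of 14611, 15607 and 14451 under DAPT, 14179, 15088 and 15957 under PP2, and 17288, 17323 and 17777 in vehicle, with no overlap. It changed by -0.23 (SE 0.06, adjusted p = 0.00555) under DAPT and by -0.21 (SE 0.06, adjusted p = 0.00535) under PP2, while TAE226 (-0.13, adjusted p = 0.11) and U0126 (0.05, adjusted p = 0.532) did not pass. The DAPT call of Rpl11 was lost with quantile normalisation (-0.06, adjusted p = 0.276) and on the poly-A controls (-0.22, adjusted p = 0.0732). Rps19, the gene first linked to Diamond-Blackfan anaemia in humans, fell under DAPT (-0.36, adjusted p = 0.000716) and PP2 (-0.29, adjusted p = 0.00242) and stood at -0.19 (adjusted p = 0.0551) under TAE226. Fau, whose product is a ubiquitin-like protein fused to S30, fell under DAPT (-0.31, adjusted p = 0.0104), as did the stalk protein gene Rplp0 (-0.29, adjusted p = 0.014), each losing that call without DAPT replicate 3 or vehicle replicate 3. Rplp0 stood at -0.21 (adjusted p = 0.0724) under TAE226 and -0.19 (adjusted p = 0.0729) under PP2, and neither differed from DAPT past the threshold (adjusted p = 0.557 and 0.373). Its stalk partner Rplp2 stood at -0.24 under DAPT (adjusted p = 0.0737) and 0.00 under PP2 and was called in neither. Rps4x, the X-linked S4 gene, fell under DAPT (-0.33, adjusted p = 0.00432), PP2 (-0.24, adjusted p = 0.0175) and TAE226 (-0.24, adjusted p = 0.0332), where the PP2 call was lost without PP2 replicate 1 and the TAE226 call without TAE226 replicate 1 or any 1 vehicle array. With the mean of all its probe sets Rps4x lost all 3 calls. Limma then gave -0.14 (adjusted p = 0.667) under DAPT, -0.33 (adjusted p = 0.217) under PP2 and -0.01 (adjusted p = 0.977) under TAE226. The other Rps4x probe set in that mean was dim, at a mean log2 signal of 2.95 and above the array median on 0 arrays.

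Several members are paralogs of a main copy. Rpl22l1, the paralog of Rpl22, had signals of 11496, 10742 and 10149 under DAPT, 13931, 16599 and 12896 under U0126, 10676, 10466 and 10935 under TAE226, 9650.0, 11041 and 9831 under PP2, and 13798, 13091 and 16157 in vehicle. DAPT, TAE226 and PP2 lay below every vehicle array and U0126 within or around them. It fell by 0.41 (adjusted p = 0.00222) under DAPT, by 0.42 (adjusted p = 0.00199) under TAE226 and by 0.49 (adjusted p = 0.000217) under PP2 on the log2 scale, and stood at 0.01 under U0126. Rpl22 fell under DAPT (-0.24, adjusted p = 0.00868), a call lost with quantile normalisation (-0.03, adjusted p = 0.593) and on the poly-A controls (adjusted p = 0.095), and stood at -0.06 under TAE226 and -0.09 under PP2, neither of which passed. Whether the 2 genes differ in their response was not tested. Rps27l, which p53 induces in human cells, had signals of 15465, 16086 and 15340 under DAPT and 17933, 17082 and 17156 in vehicle. Its change was -0.15 (adjusted p = 0.056) under DAPT and between -0.00 and 0.04 under the other 3 inhibitors, and none was called. Its main copy Rps27 was dim and scattered, at 330.5, 182 and 322 under DAPT against 347, 444 and 714 in vehicle, and its -0.84 (SE 0.37, adjusted p = 0.0947) did not pass. Rpl7l1 had signals of 1934, 1751 and 1925 under U0126 against 2111, 2126 and 1956 in vehicle, a fall of 0.14 on the log2 scale (adjusted p = 0.0399). Both other Rpl7l1 probe sets stood above vehicle under U0126, at 0.19 and 0.11, averaging all 3 gave 0.05 (adjusted p = 0.43), and the call was lost without U0126 replicate 2 or vehicle replicate 1 or 2. Its main copy Rpl7 was not called against vehicle by any inhibitor, nearest under DAPT (-0.20, adjusted p = 0.0507), and was called higher in U0126 over DAPT (0.26, adjusted p = 0.0101).

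**Figure D2:**
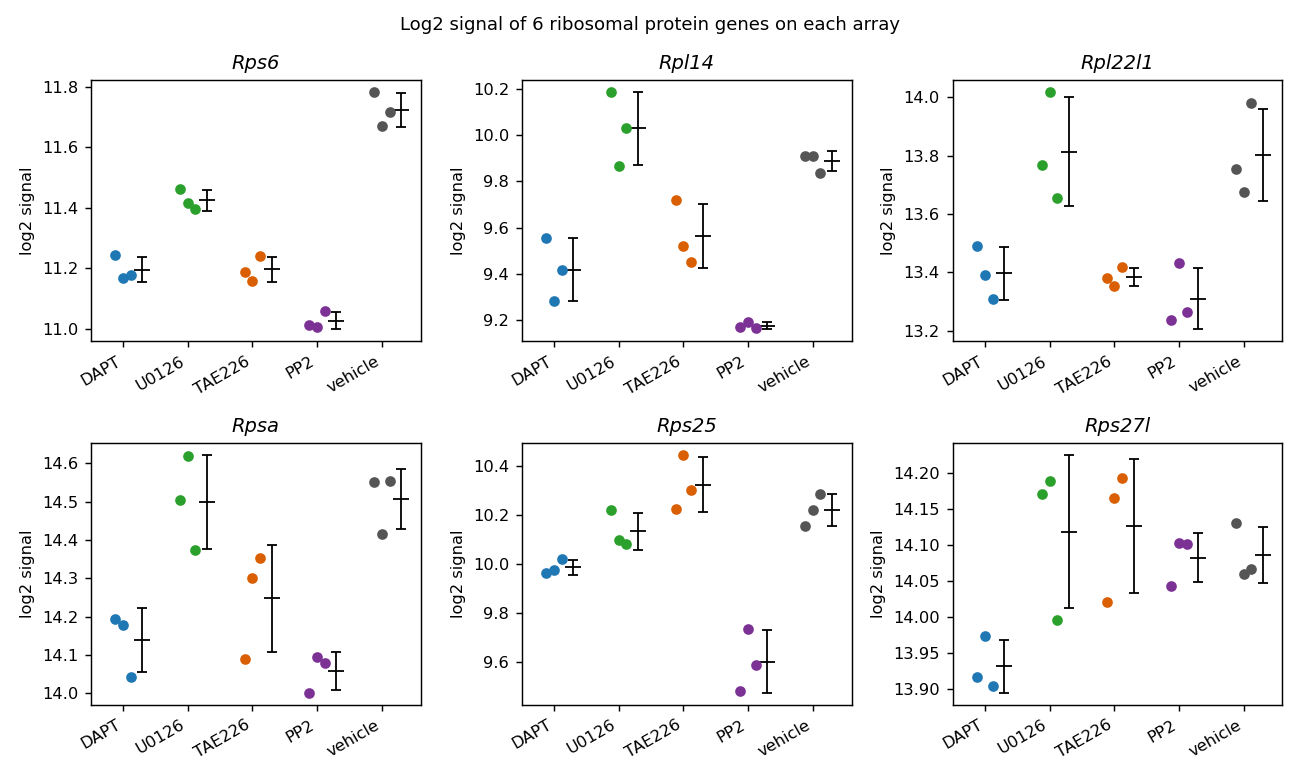
Log2 signal (vertical axis) of 6 ribosomal protein genes on each array, by group (horizontal axis); points are arrays, and the bar beside them is the mean with its SD (n = 3). Rps6 is below vehicle in all 4 inhibitor groups, Rps25 is lowest in PP2 and not in TAE226, and Rps27l overlaps with vehicle in all but DAPT.

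The 37 brightest genes were read together on each array. Their median log2 signal was 14.24, 14.17 and 14.06 on the DAPT arrays, 14.47, 14.52 and 14.33 under U0126, 14.07, 14.33 and 14.36 under TAE226, 14.18, 14.32 and 14.27 under PP2, and 14.42, 14.34 and 14.49 in vehicle. DAPT and PP2 arrays lay below all vehicle arrays, and TAE226 overlapped with vehicle, with replicate 1 the lowest of its group. Under DAPT all 37 changes were negative, from -0.41 to -0.11, and under U0126 they spanned -0.03 to 0.09. Under TAE226 they ran from -0.42 to 0.04 with 36 below 0, and under PP2 from -0.49 to 0.16 with 30 below 0. There were 112 other genes at least as bright as the dimmest of the 37. As a set they were dimmer than the 37. In vehicle the median log2 signal averaged 13.87 for the 112 and 14.42 for the 37. Under DAPT 22 of the 37 were called lower (59.5%) against 22.3% of the 112, under PP2 11 (29.7%) against 18.8%, under TAE226 5 (13.5%) against 12.5%, and under U0126 none against 12.5%, none at an unadjusted p under 0.05 either. The medians of the 112 were -0.09 under DAPT, 0.08 under PP2, 0.00 under TAE226 and 0.07 under U0126.

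The other bright genes also moved with the group, so the gap between both medians was read on each array. It was 0.46, 0.38 and 0.33 under DAPT, 0.53, 0.52 and 0.46 under U0126, 0.29, 0.46 and 0.47 under TAE226, 0.30, 0.38 and 0.33 under PP2, and 0.53, 0.51 and 0.61 in vehicle, on the log2 scale. DAPT, TAE226 and PP2 arrays all lay below the vehicle range, and U0126 overlapped with it. Measured this way, the gap averaged 0.39 ± 0.06 under DAPT, 0.50 ± 0.03 under U0126, 0.41 ± 0.10 under TAE226, 0.33 ± 0.04 under PP2 and 0.55 ± 0.05 in vehicle (SD, n = 3 each), so PP2 and not DAPT was the lowest group.

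**Figure D3:**
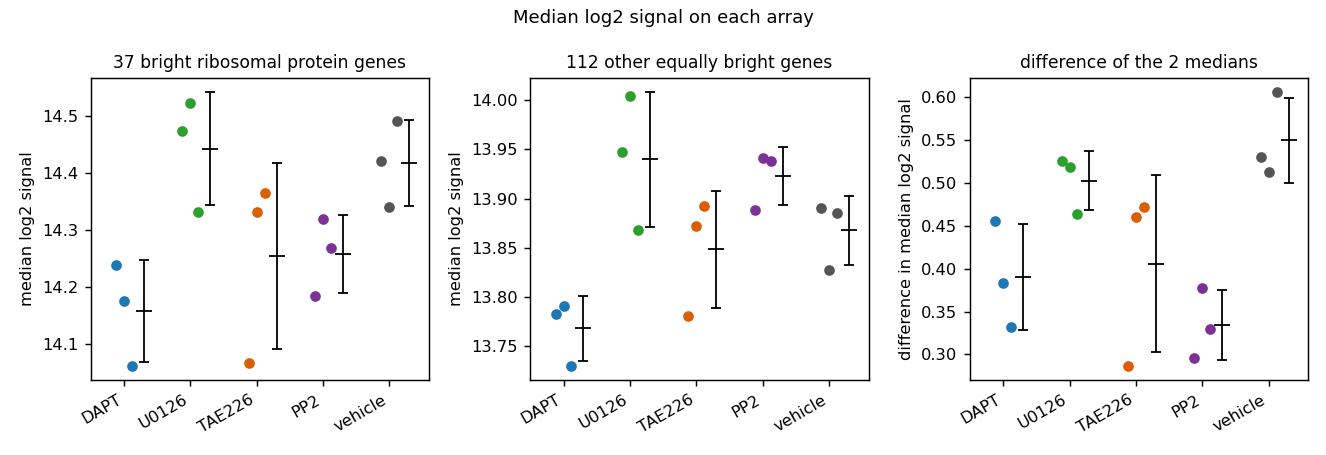
Median log2 signal per array (vertical axis) by group (horizontal axis) for the 37 bright ribosomal protein genes (left), the 112 other genes at least as bright as the dimmest of them (middle) and the gap between both (right, log2). Points are arrays, and the bar beside them is the mean with its SD (n = 3). DAPT is the lowest group on the left at 14.16, and PP2 is the lowest on the right at 0.33.

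The number of genes called lower moved with the scaling. Under DAPT it was 25 as deposited, 18 with cyclic loess, 10 with quantile normalisation, which also brought the median to -0.04, and 8 when arrays were aligned on the poly-A controls. Of all genes 17.5%, 19.1%, 17.8% and 13.6% were called lower in the same order. The quantile and poly-A counts were thus near the background. As quantile normalisation can remove a shift shared by many of the brightest genes, its count cannot show whether the family moved together. Aligned on the 112 other bright genes, a choice made after the data were seen, the counts were 21 under DAPT, 2 under U0126, 16 under TAE226 and 25 under PP2. Centred on all probe sets, also chosen afterwards, they were 40, 1, 39 and 32, but all genes then shifted by -0.12, -0.08, -0.24 and -0.20. Neither set of counts was read against the share of all genes called lower under the same scaling. Some named members kept their calls under each alternative in which they were tested. These were Rpl14, Rpl22l1 and Rps19 under DAPT and Rpl22l1 under TAE226. Under PP2 they were Rpl14, Rpl22l1, Rps25, Rpl12, Rpsa, Rpl11 and Rps19. Of all these genes only Rpsa has a second probe set. The other rules for choosing probe sets, which ended calls of Rps6 and Rps4x, thus could not change the values of the rest. A stricter filter on dim genes, at the 90th percentile of the array, left Rpl14, Rps25 and Rpl12 untested.

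**Figure D4:**
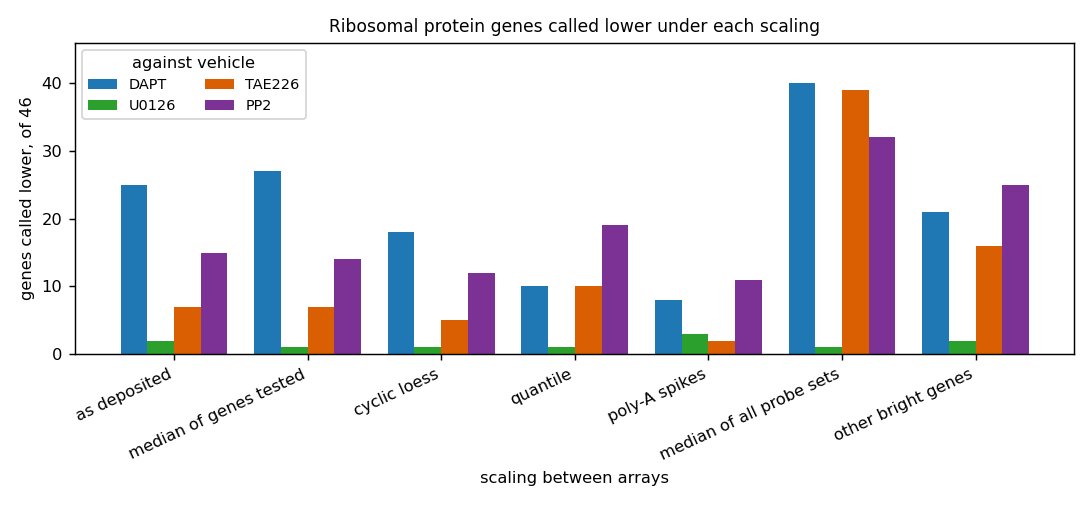
Number of the 46 ribosomal protein genes called lower (bars, vertical axis) for each inhibitor against vehicle under 7 ways of scaling the arrays (horizontal axis). DAPT runs from 8 to 40, TAE226 from 2 to 39, PP2 from 11 to 32 and U0126 from 1 to 3. The share of all genes called lower under each scaling is not shown.

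Genes that serve the making of ribosomes were read beside their protein genes, in lists taken from general knowledge. The shares of all genes called lower, against which each count is read, were 26.9% under PP2, 17.5% under DAPT, 15.9% under TAE226 and 21.3% under U0126. Ribosome biogenesis genes, which process rRNA and assemble subunits in the nucleolus, were lower under PP2 in 41 of 49, with a median of -0.57, under DAPT in 26, under TAE226 in 17 and under U0126 in 14, the last near its background. The PP2 falls included Rrp9 (-1.33, adjusted p = 0.000897), a U3 snoRNP protein, Mybbp1a (-0.96, adjusted p = 1.05e-07), a nucleolar Myb-binding protein, Lyar (-0.90, adjusted p = 4.65e-08) and the nucleolar GTPase gene Gnl3 (-0.83, adjusted p = 8.45e-09). Under DAPT the same 4 genes stood at -1.69, -0.62, -0.44 and -0.41, all called. RNA polymerase I genes, which make and start the rRNA transcript, were lower in 11 of 17 under PP2, in 4 under DAPT, in 3 under TAE226 and in 2 under U0126, where DAPT and TAE226 were near the background and U0126 below it. Polr1c, a subunit shared with RNA polymerase III, stood at -0.58 under PP2, -0.29 under DAPT, -0.25 under TAE226 and -0.22 under U0126. The PP2 biogenesis count was 19 with the stricter filter on dim genes, which counts only those of the 49 that pass it. The TAE226 biogenesis count was 2 on the poly-A alignment.

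Other mRNAs of the translation machinery also carry the TOP motif. Of 18 such genes tested 11 were lower under DAPT, against 17.5% of all genes, 12 under PP2, against 26.9%, 7 under TAE226, against 15.9%, and 1 under U0126, against 21.3%. Npm1, the nucleolar chaperone nucleophosmin, changed by -0.65 (adjusted p = 2.17e-07) under PP2, by -0.35 (adjusted p = 0.000383) under DAPT, by -0.27 (adjusted p = 0.00325) under TAE226 and by -0.19 (adjusted p = 0.0258) under U0126. Eif4b, an S6 kinase target that helps the helicase eIF4A, changed by -0.44 under PP2 and -0.37 under TAE226. The only gene of this list that was called higher was Vim, which encodes the filament protein vimentin, at 0.96 under U0126, 0.43 under TAE226 and 0.33 under DAPT. Of 25 other translation factors 17 were lower under PP2, 8 under DAPT, 7 under TAE226 and 2 under U0126. The cap-binding protein gene Eif4e stood at -0.63 (adjusted p = 9.24e-07) under PP2 and -0.42 (adjusted p = 0.000174) under TAE226. The 76 mitochondrial ribosomal protein genes tested went both ways: 24 were lower and 4 higher under DAPT, 27 lower and 16 higher under PP2, 16 lower and 4 higher under TAE226, and 12 lower and 18 higher under U0126. The shares lower under PP2 and TAE226 and the share higher under U0126 were near those of all genes. Mrpl33 rose by 0.70 under DAPT, 0.79 under TAE226 and 0.85 under U0126 on the log2 scale, and Mrps18b stood at -0.72 under PP2 and -0.53 under DAPT, all called.

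Of 20 regulators of mTORC1 and of TOP mRNAs, 9 were lower and 5 higher under PP2, 4 lower and 2 higher under DAPT, 4 lower and 1 higher under TAE226, and 5 lower and 3 higher under U0126. Set against 26.9%, 17.5%, 15.9% and 21.3% of all genes called lower, the last 3 comparisons were near the background. Eif4ebp1, which holds back cap-dependent translation, was lower under each inhibitor, at -1.37 (adjusted p = 5e-11) under PP2, -0.80 (adjusted p = 1.07e-07) under DAPT, -0.71 (adjusted p = 7.2e-07) under TAE226 and -0.54 (adjusted p = 6.96e-06) under U0126. The mTOR inhibitor gene Deptor stood at -1.62 under PP2, -0.57 under DAPT and -0.99 under U0126, all called, and was called lower under TAE226 too. Myc, the transcription factor that drives many ribosome production genes, fell under PP2 (-1.25, adjusted p = 4.85e-11), stood at -0.06 (adjusted p = 0.469) under DAPT and 0.06 under TAE226, and rose under U0126 (0.23, adjusted p = 0.0063). Of 8 genes on ribosomal stress and p53, 5 were higher and 1 lower under TAE226, 4 higher and 1 lower under U0126, 2 higher and 1 lower under DAPT, and 1 higher and 3 lower under PP2, where 15%, 19.4%, 16.8% and 25.9% of all genes were higher. Mdm2 rose under TAE226 (0.75, adjusted p = 4.26e-07) and U0126 (0.59, adjusted p = 3.28e-06) and stood at 0.09 under DAPT and 0.05 under PP2. The cell cycle inhibitor gene Cdkn1a fell under PP2 (-1.01, adjusted p = 8.56e-10) and DAPT (-0.79, adjusted p = 5.44e-08), and rose under TAE226 (0.30, adjusted p = 0.0015) and U0126 (0.21, adjusted p = 0.013).

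**Figure D5:**
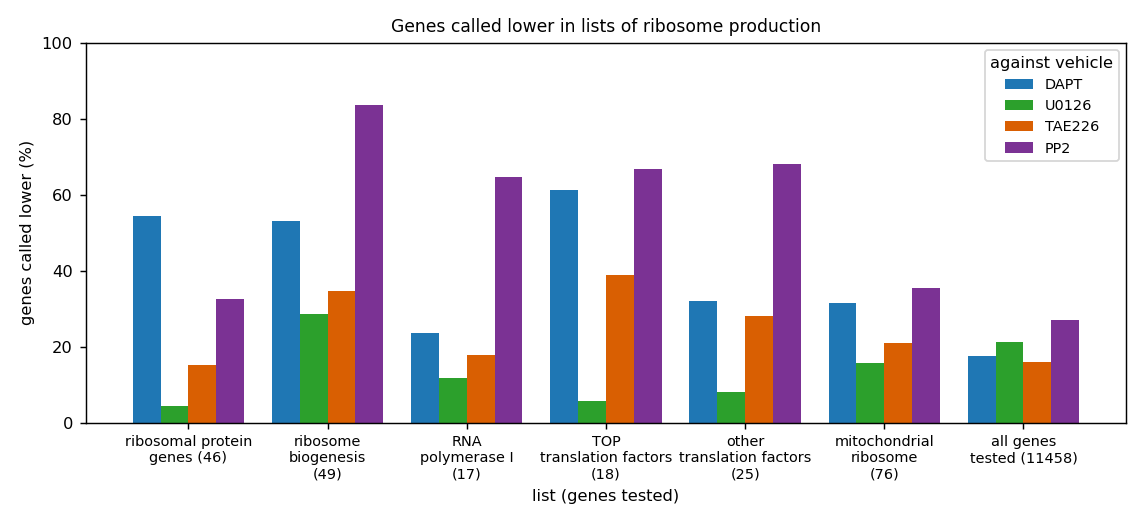
Share of genes called lower (vertical axis, percent) for each inhibitor against vehicle, in the ribosomal protein genes, in 5 lists of genes for ribosome production and translation, and in all genes tested (horizontal axis, number tested in brackets). PP2 is the tallest bar for ribosome biogenesis with 41 of 49, and DAPT for the ribosomal protein genes with 25 of 46.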

How the data were processed

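RNA from 15 samples was measured on 1 array each. Per the labels' protocols, 250 ng of total RNA was labelled with a 3′ IVT kit. The deposited values are linear signal intensities, which the authors made with Affymetrix Expression Console and MAS5, per the submitters' processing notes. The values show the scaling: a mean of 500 on each array after trimming 2% at each end. No detection calls were used.

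Of 45101 probe sets, 64 were controls, 34945 named 1 gene, 932 several and 9160 no listed gene. A gene was represented by its probe set of highest mean log2 signal; 14 of the 46 ribosomal protein genes tested rest on a probe set marked _x_at, which may cross-hybridise. Genes above the array median on at least 3 arrays (11458) were tested with limma 3.58.1 in R 4.3.3 on log2 intensity, with 1 mean per group, an intensity trend and Benjamini-Hochberg adjustment over all genes tested; p-values are two-sided and the threshold was 0.05. Residual degrees of freedom were 10 and prior ones 6.10. Precision is limited by the 15 arrays. The fit was tested on simulated data.

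The genes, lists and tests were chosen with earlier results of these data known. Named genes were the 5 largest rises and falls of each comparison among genes past the threshold, the genes with roles outside the ribosome, paralogs with their main copies, and at most 4 members of each other list; Rpl37, Rpl39, Rpl27a, Rps15 and Rps9 were named after their values were seen, as were values of listed genes in comparisons where they were not among the 4. Alternatives were other scalings, filters, probe set rules and fits, and leaving out each array. Within groups arrays differed by a median of 0.0955 to 0.150 log2, and between groups by 0.169 to 0.351; no array copied another. Promoters were read from RefSeq, with 44 of 50 genes matched.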

Additional observations from a re-analysis of the deposited data

How the results depend on the processing

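Genes called lower against vehicle numbered 25 under DAPT, 2 under U0126, 7 under TAE226 and 15 under PP2 as deposited. The DAPT count was 10 with quantile normalisation, 8 on the poly-A controls (11 of 12 probe sets usable) and 40 with centring on all probe sets. The counts of 10 and 8 were near the background, as 17.8% and 13.6% of all genes were called lower there. The DAPT median, -0.24, was -0.043 with quantile normalisation, -0.13 with cyclic loess, -0.37 with centring on all probe sets and -0.14 on the other bright genes. The U0126 count was 1 with median centring, quantile normalisation, cyclic loess, no filter, only the groups compared or centring on all probe sets. It was 0 with the mean of all probe sets, and 1 gene was higher with that mean or without _x_at probe sets. On the poly-A controls the U0126 median was -0.14, against -0.17 over all genes. The TAE226 count was 2 on the poly-A controls, where 8.29% of all genes were called lower. It was 39 with centring on all probe sets and 16 on the other bright genes. Under quantile normalisation, cyclic loess or the poly-A controls 1 gene was higher under TAE226. The TAE226 median was -0.37 with centring on all probe sets. The PP2 count was 32 with that centring, with a median of -0.33, and 25 on the other bright genes, and 1 gene was higher with median centring. With centring on all probe sets all genes shifted down too, by the values given above. The F-test count of 30 was 12 on the poly-A controls. U0126 over DAPT, 37 higher, gave 8 with quantile normalisation (median 0.044), 24 with cyclic loess (0.16), 1 on the poly-A controls (0.083) and 9 on the other bright genes (0.095). With quantile normalisation 21.8% of all genes were called higher, so that count did not exceed the background. The count of lower genes in U0126 over DAPT was 2, 0 and 0 on the poly-A controls, with the mean of all probe sets and with centring on all probe sets. Rps27l in U0126 over DAPT was -0.047 with quantile normalisation, and Rps6 in TAE226 over U0126 was 0.043 on the poly-A controls. With the mean of all probe sets Rpl7l1 was 0.052 in U0126 over vehicle and 0.053 in U0126 over DAPT, and Rps6 was 0.16 in U0126 over vehicle, 0.030 in PP2 over TAE226 and 0.0071 in PP2 over DAPT. The cause was not tested. The F-test count of 12, and the counts on the other bright genes and with centring on all probe sets, were not set against the share of all genes called. The same holds for the counts of U0126 over DAPT on the poly-A controls.

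Leaving out each array in turn gave 15 to 30 genes lower under DAPT (median -0.27 to -0.20), 1 to 2 under U0126 (-0.01 to 0.09), 4 to 9 under TAE226 (-0.16 to -0.04) and 11 to 16 under PP2 (-0.14 to -0.08), with 0 to 1 higher under U0126, TAE226 and PP2. It gave 23 to 39 higher and 1 lower in U0126 over DAPT (0.23 to 0.33), with 23 without DAPT replicate 3 or U0126 replicate 2, and 21 to 40 in the F-test. Once group means were removed, arrays of different groups with the same replicate number had correlations of -0.24 to 0.20. Those with other numbers had -0.29 to 0.27. With 3 arrays per group this cannot show whether the numbers pair samples. With the replicate number as a block the counts lower were 25 under DAPT, 1 under U0126, 6 under TAE226 and 14 under PP2. The alignments on other bright genes and on all probe sets were chosen after the data were seen. Saturation near the top of the range and cross-hybridisation were not tested, and the labels leave the origin of the replicates unstated.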
